A study of Mus musculus with 6 samples.

Results

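A set of 10 genes known from satellite glia, the cells that wrap each sensory neuron of a ganglion, was followed in whole dorsal root ganglia of mice after a burn: Gfap, Fabp7, Glul, Gja1, Slc1a3, Apoe, Lgi4, Ptprz1, Cdh19 and Vim. They were taken by gene symbol, and all 10 were found among the 38926 symbols of the count tables and passed the filter on low counts that left 17534 genes. The burn group held 3 libraries of lumbar ganglia (L3, L4 and L5) collected 3 days after a burn injury, and the control group held 3 libraries of the same ganglia. All came from wild type male C57BL/6 mice aged 6 to 8 weeks. The title of 1 burn library carries no number but the letters IP, which the submitters' design note reads as ipsilateral; it is called burn 3, and no side is named for the other 2. The labels say neither which tissue was burned, nor what the control mice underwent, nor whether a library held 1 animal or a pool, so p-values measure only the spread between these libraries, which may be technical. Although the tissue is also labelled as neurons, whole ganglia were extracted, and glial transcripts were present in every library.

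Satellite glia take up and recycle the glutamate that neurons release, share ions and small molecules through gap junctions, and supply lipids to the neuron they enclose. After injury of a peripheral nerve they are known to react, and a rise of glial fibrillary acidic protein is the usual mark of that reaction. None of the 10 genes belongs to satellite glia alone. Gfap, Fabp7, Gja1, Slc1a3, Glul and Ptprz1 are also used by astrocytes of the brain and spinal cord, Lgi4 and Cdh19 by Schwann cells, Apoe by macrophages, and Vim by fibroblasts and endothelium. In RNA of a whole tissue, fewer cells of a type and less RNA per cell cannot be told apart.

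Reads counted in genes ran from 17273908 to 81968142 per library. Burn 3 and control 3 were the deepest, and the first principal component (39.4% of the variance) set them apart from the other 4, so values are also given for these 2 libraries (the deeper pair) and for the other 4. Mitochondrial transcripts took from 1.71% to 5.44% of reads, highest in burn 3 and then in control 3. Of the 17534 genes tested, 4 were called higher and 0 lower at an adjusted p under 0.05 in edgeR's quasi-likelihood test, while 357 higher and 162 lower genes had an unadjusted p below 0.05. DESeq2 called 28 higher and 0 lower, and limma-voom 3 and 0. The gene with the lowest p was Atf3, a stress-response transcription factor of injured neurons, at 80.9, 75.6 and 60.05 CPM in burn libraries and 6.99, 6.73 and 7.20 CPM in controls (adjusted p 0.000387).

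None of the 10 satellite glia genes was called. The count was 0 of 10 in either direction by edgeR, against 0.0228% of all genes tested, and 0 of 10 by DESeq2 and by limma-voom. At an unadjusted p under 0.05 there was 1 of 10, Gfap, which stood higher after the burn, against 2.96% of all genes. Of the 10, 5 had a positive and 5 a negative log2 fold change, with a median of 0.04 beside 0.01 over all genes tested. Summed over the 10 genes, the share of all gene reads was 0.317%, 0.313% and 0.349% in burn libraries 1 to 3 and 0.336%, 0.376% and 0.383% in control libraries 1 to 3. The burn and control ranges overlapped. Apoe alone made up 51.0% to 56.6% of these reads in burn libraries and 57.9% to 61.6% in controls.

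Gfap encodes the type III intermediate filament of reactive glia, and Vim encodes vimentin, a second filament of the same class. They were the most and among the least variable of the 10 genes, and their promoter windows are shown for that contrast. Each line gives 250 bases before and 50 bases after the RefSeq start, on the strand of the gene, in GRCm38. Capitals mark TTCNNNGAA, the letters bound by STAT factors; TGANTCA, those bound by AP-1, was also searched, both motifs being read on both strands.
Gfap promoter, chr11:102897151-102897450, minus strand: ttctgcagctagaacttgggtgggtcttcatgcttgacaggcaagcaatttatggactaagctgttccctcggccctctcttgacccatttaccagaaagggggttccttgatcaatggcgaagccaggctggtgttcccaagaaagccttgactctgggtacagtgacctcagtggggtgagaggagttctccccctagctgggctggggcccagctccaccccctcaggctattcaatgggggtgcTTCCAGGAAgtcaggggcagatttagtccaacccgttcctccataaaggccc
Vim promoter, chr2:13574061-13574360, plus strand: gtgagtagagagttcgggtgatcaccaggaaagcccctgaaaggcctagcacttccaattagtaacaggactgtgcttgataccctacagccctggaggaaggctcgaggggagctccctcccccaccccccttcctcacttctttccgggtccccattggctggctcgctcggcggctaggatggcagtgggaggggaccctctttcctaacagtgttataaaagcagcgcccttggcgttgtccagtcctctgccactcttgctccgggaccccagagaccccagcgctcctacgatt
The Gfap window held 1 match, TTCCAGGAA, which begins 2 bases before the start, and the Vim window held neither motif. TTCNNNGAA was found in 8.3% and TGANTCA in 7.81% of 32851 promoter windows of the same length. Of the 8 genes with a window in the table, Slc1a3 also held TTCNNNGAA and Gja1 held TGANTCA. Such a match describes the letters of the window.

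Levels between genes were compared as CPM (reads per 1e6 reads of the scaled library size) per kilobase of merged annotated exons. In control ganglia Apoe, the lipid carrier of glial lipoproteins, had the highest level of the 10, at 1009 ± 113 CPM per kb (SD, n = 3), above 99.9% of tested genes with a known length. Fabp7, a fatty acid binding protein of immature and satellite glia, followed at 229.7 ± 47.1 CPM per kb in controls. Glul, which encodes glutamine synthetase, had 119 ± 10.8 and Vim 106 ± 16.4 CPM per kb, and their control ranges overlapped. Cdh19, a cadherin of the neural crest lineage, had 17.3 ± 1.87 and Lgi4, a secreted ligand needed for peripheral myelination, 14.6 ± 2.56 CPM per kb, again with overlapping ranges. The lowest 4 in controls were Gja1 at 4.26 ± 0.591, Ptprz1 at 3.74 ± 0.923, Slc1a3 at 3.38 ± 0.0444 and Gfap at 2.37 ± 1.13 CPM per kb, each overlapping its neighbour in that order. In burn ganglia the first 6 places were the same, from Apoe at 833 ± 101 to Lgi4 at 14.3 ± 3.66 CPM per kb. Gfap stood seventh there at 6.57 ± 3.84 CPM per kb, followed by Ptprz1, Gja1 and Slc1a3, and the ranges of these 4 genes overlapped from each to the next.

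**Figure D1:**
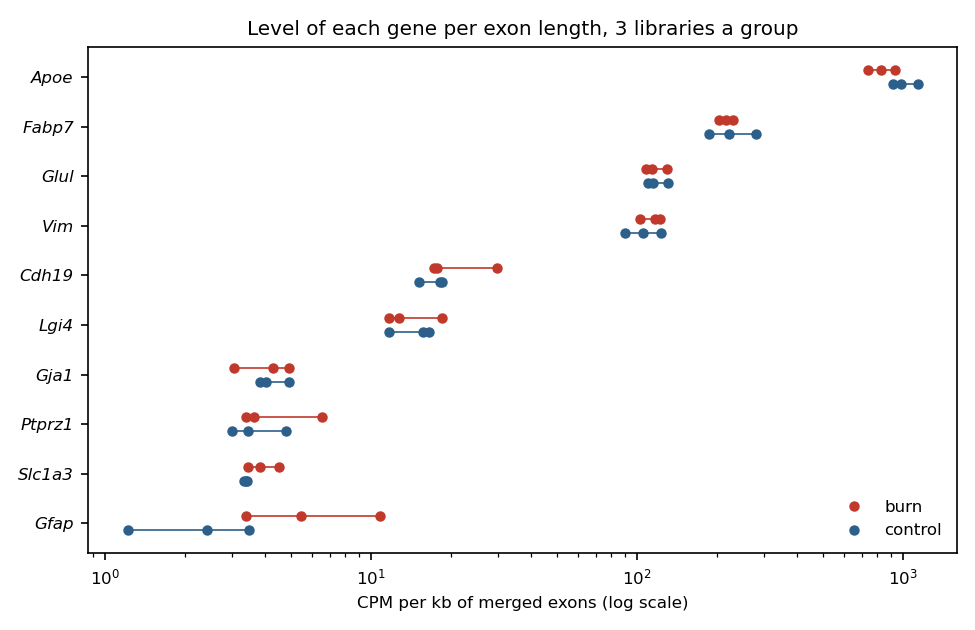
Level of each gene in CPM per kb of merged exons (x axis, log scale) in 3 burn and 3 control libraries, a point per library and a line over each group's range. Apoe stands above all others, and Gfap, lowest in controls at 2.37 CPM per kb on average, has the widest range.

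Gfap had 1035, 433 and 1516 reads in burn libraries 1 to 3 and 374, 264 and 409 in control libraries 1 to 3. On the CPM scale these were 45.7, 14.3 and 23.1 in burn libraries, against 10.2, 14.7 and 5.14 in controls. Burn 1 stood highest and control 3 lowest, and the groups overlapped, since burn 2 lay just under control 2. The fitted difference was 2.80-fold (log2 fold change 1.49, SE 0.52, 95% interval 0.23 to 2.74), with an unadjusted p of 0.0262 and an edgeR adjusted p of 0.9998. On the log2 scale it was 2.14 between the deeper pair and 1.06 among the other 4 libraries. Without burn 1 the log2 fold change was 0.92 (edgeR adjusted p 0.9996). The highest Gfap level was 8.89 times the lowest over the 6 libraries, a ratio above that of 98.2% of tested genes, where the median gene had 1.49. Its biological coefficient of variation, the spread between libraries of a group in the fit, was 0.414, against 0.140 to 0.255 for the other 9 genes.

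Gfap was highest in burn 1 and burn 3, as were transcripts of oligodendrocytes and inhibitory neurons, but the match was partial. Some astrocyte genes followed another order. In the list of 16 genes of astrocytes, oligodendrocytes and inhibitory neurons, all 16 were tested and 0 were called in either direction. Of these, 3 (Olig2, Opalin and Slc32a1) passed the filter on low counts only through the burn libraries, a choice that favours higher burn values, and they are left out of the counts that follow. Of the other 13, 8 were higher and 0 lower by an unadjusted p below 0.05, against 357 and 162 of all 17534 genes tested. A positive sign was held by 10 of the 13, against 9137 of all genes tested. The median log2 fold change of the 13 was 0.75, beside 0.01 over all genes tested, and 4 of the 13 did not overlap between the groups, against 7.24% of all genes. All 16 summed to 215, 149.8 and 271 CPM in burn libraries 1 to 3 and to 154, 164 and 112 CPM in control libraries 1 to 3, with burn 2 under control 1 and control 2. None of its genes was at 0 in any library. Mog, a myelin protein of oligodendrocytes, had 5.34, 2.02 and 4.43 CPM in burn libraries and 1.502, 1.56 and 0.591 CPM in controls. Gad2, which makes the transmitter GABA, had 2.43, 1.46 and 3.41 CPM in burn libraries and 0.847, 0.723 and 0.327 CPM in controls. Burn 1 and burn 3 were the high libraries and control 3 the lowest for both of these genes and for Gfap on the CPM scale. In burn 2, however, Gfap lay under control 2, while Mog and Gad2 lay above every control. The ratio of Gfap to Mog ran from 5.21 in burn 3 to 9.43 in control 2. For Gad2 it ran from 6.77 in burn 3 to 20.3 in control 2. Among the astrocyte genes of the list, Slc1a2, a glutamate transporter, stood at 76.4 ± 38.6 CPM in burn and 34.3 ± 11.03 CPM in control ganglia (n = 3 each). Slc6a11, Aqp4, Slc7a10 and Aldh1l1 also had positive log2 fold changes, of 0.75 (SE 0.30), 0.57 (SE 0.24), 0.47 (SE 0.57) and 0.15 (SE 0.15). Mlc1, Gjb6 and Agt had log2 fold changes of -0.12, -0.27 and -0.02. Mlc1 had 23.5, 27.8 and 28.6 CPM in burn libraries and 26.1, 31.0 and 29.8 CPM in controls, lowest in burn 1, where Gfap was highest. Mlc1, Gjb6, Agt and Aldh1l1 were highest in control 2, and Slc1a2, Aqp4, Slc6a11 and Slc7a10 in burn 3.

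Among 15591 tested genes whose mean log2 CPM was 0 or more, the profile nearest to that of Gfap over the 6 libraries was that of Mog. Their root mean square difference of centred log2 CPM was 0.28, where the median gene had 0.99. Olig1, a transcription factor of oligodendrocytes, was next (0.34), followed by Glra1, a glycine receptor subunit (0.38), Gm24105 (0.40) and Slc39a12, a zinc transporter (0.40).

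With the mean level of the 16 genes as a term in the fit, the Gfap log2 fold change was 0.16 (SE 0.47, edgeR adjusted p 0.9999). With 8 genes of oligodendrocytes and inhibitory neurons alone, a choice made after the data were seen, it was -0.28 (SE 0.56, adjusted p 0.9997). Both the 16 and the 8 genes include Olig2, Opalin and Slc32a1, which passed the filter only through the burn libraries, a choice that favours higher burn values. The mean log2 CPM of the 8 genes was itself 1.44, 0.42 and 1.51 in burn libraries and 0.01, -0.05 and -1.05 in controls, without overlap. The term therefore holds part of the difference between the groups, and the level of these transcripts and the burn cannot be told apart in these 6 libraries.

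**Figure D2:**
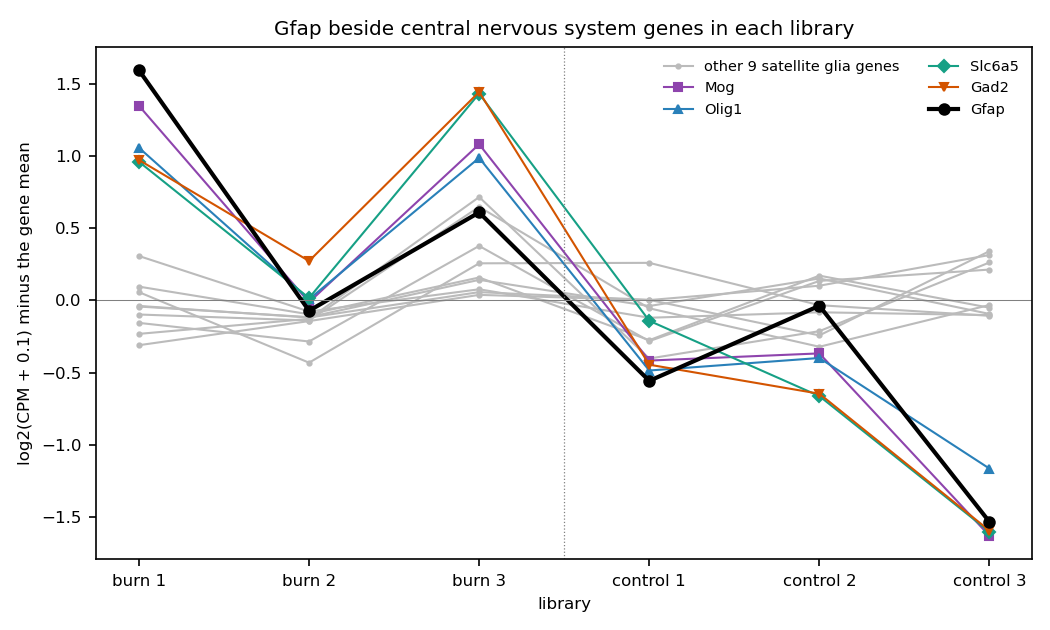
Centred log2(CPM + 0.1) of Gfap, of Mog, Olig1, Slc6a5 and Gad2, and of the other 9 satellite glia genes (grey) in each burn and control library. Gfap and these 4 genes of oligodendrocytes and inhibitory neurons are high in burn 1 and burn 3 and lowest in control 3. Astrocyte genes of the list are not drawn.

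Vim had 554, 485 and 579 CPM in burn libraries 1 to 3, against 429, 584 and 501 CPM in control libraries 1 to 3. The groups overlapped, and the highest level was 1.36 times the lowest. Its log2 fold change was 0.10 (SE 0.15, 95% interval -0.26 to 0.45, edgeR adjusted p 0.9998). The profiles nearest to that of Vim were those of Slc23a2 (0.034), Micall1, Mast2, Gm15800 and Parva (all 0.04). Of 10 genes of other filaments and their linkers, all were tested and 0 were called in either direction. They had a median log2 fold change of 0.00, with 5 of each sign, and 2 of the 10 did not overlap between the groups, against 7.24% of all genes. Lmna, a nuclear lamin, stood at 127.8 ± 1.23 CPM in burn and 144.6 ± 11.9 CPM in control ganglia (n = 3 each), lower in every burn library (log2 fold change -0.18, SE 0.11, edgeR adjusted p 0.9998). Ina, the neuronal filament alpha-internexin, stood at 24.8 ± 1.86 CPM in burn and 20.6 ± 1.09 CPM in control ganglia (n = 3 each), higher in every burn library (adjusted p 0.9998), and Nes, the filament nestin of immature and reactive glia, had a log2 fold change of 0.22 (SE 0.32).

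**Figure D3:**
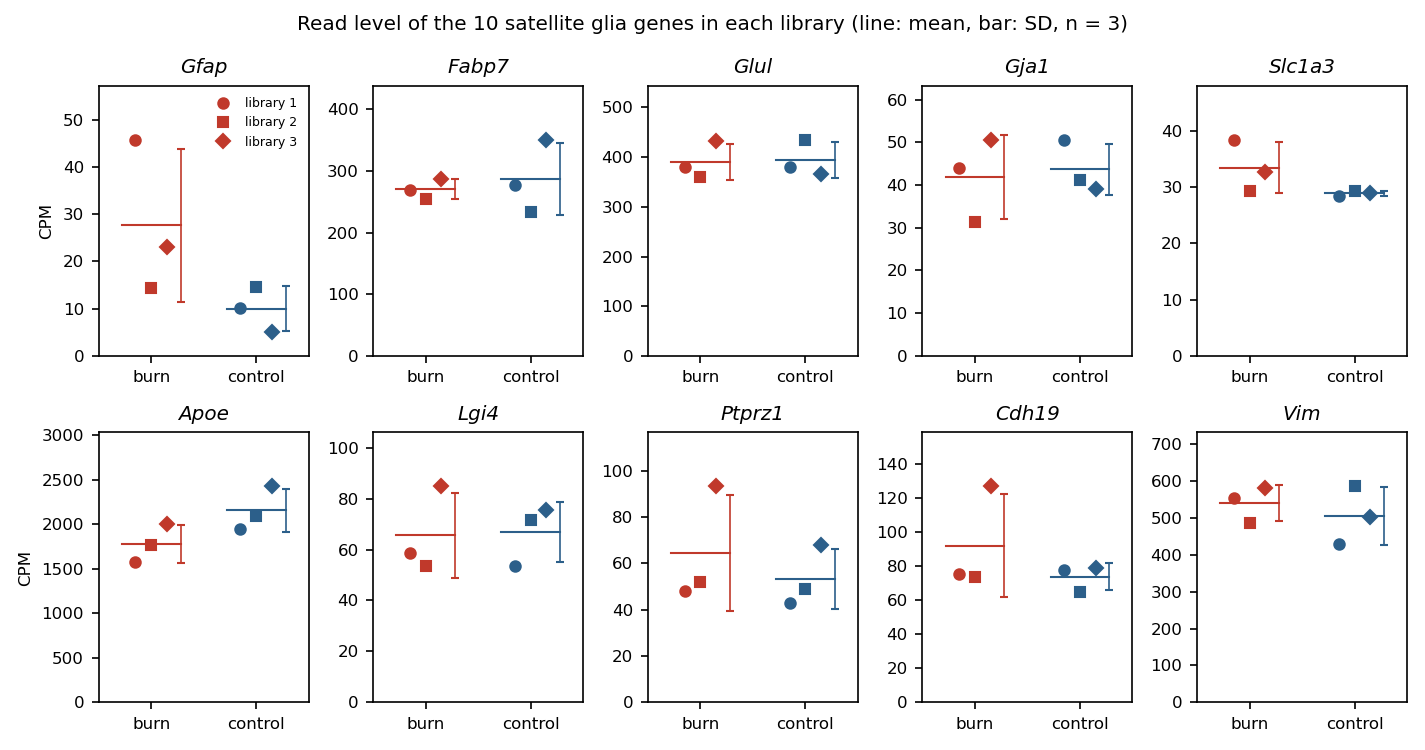
CPM of each of the 10 genes in 3 burn and 3 control libraries, with the group mean (line) and SD (bar) on axes that start at 0. Gfap spreads from 5.14 to 45.7 CPM, and Slc1a3 is the 1 gene whose groups do not overlap.

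The glutamate genes were not called. Slc1a3, the glutamate transporter GLAST, had 38.4, 29.4 and 32.7 CPM in burn libraries and 28.5, 29.3 and 28.9 CPM in controls. Every burn value lay above every control value, by the narrowest margin between burn 2 at 29.37 and control 2 at 29.27 CPM. It was the 1 gene of 10 without overlap, against 7.24% of all genes, 4.33% with the burn values above. Its log2 fold change was 0.21 (SE 0.12, 95% interval -0.08 to 0.50, edgeR adjusted p 0.9998). Glul had 379.7, 361 and 432 CPM in burn libraries and 381, 434 and 366 CPM in controls. The groups overlapped almost fully, with a log2 fold change of -0.01 (SE 0.13, 95% interval -0.32 to 0.30) and a highest level 1.20 times the lowest. Of 12 other genes of glutamate and glutamine handling, 0 were called, 7 had a positive and 5 a negative sign, with a median log2 fold change of 0.05. Slc1a2, given above with the astrocyte genes, had the largest difference of these (1.17, SE 0.42, adjusted p 0.9998). The glutamine carriers Slc38a5 and Slc38a1 had -0.79 (SE 0.35) and 0.23 (SE 0.10).

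Gja1, which encodes connexin 43, had 43.9, 31.3 and 50.4 CPM in burn libraries, against 50.5, 41.2 and 39.2 CPM in controls. The groups overlapped, burn 2 being the lowest library. Its log2 fold change was -0.06 (SE 0.19, 95% interval -0.51 to 0.39, edgeR adjusted p 0.9998), and it was -0.53 (SE 0.21, adjusted p 0.9999) with the 16 central nervous system genes as a term. Of 12 other connexins, pannexins and scaffold genes 0 were called, and the median log2 fold change was -0.06. Gjc3, a connexin of glia, had a log2 fold change of 0.14 (SE 0.36), Panx1, a channel that releases ATP, -0.05 (SE 0.13), and the low-level Gja4 and Gjc1 had -0.33 (SE 0.23) and 0.24 (SE 0.19).

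The lipid genes were not called either. Apoe had 1574, 1767 and 2004 CPM in burn libraries and 1954, 2094 and 2426 CPM in controls. Burn 1 and burn 2 lay under all controls, and burn 3 lay between control 1 and control 2. Its log2 fold change was -0.28 (SE 0.16, 95% interval -0.65 to 0.09, edgeR adjusted p 0.9998), and it stood at -0.28 both between the deeper pair and among the other 4 libraries. Fabp7 had 269, 255 and 288 CPM in burn libraries and 277, 234 and 350.3 CPM in controls, a log2 fold change of -0.09 (SE 0.16, 95% interval -0.47 to 0.30). The controls enclosed the burn values. The profiles nearest to that of Fabp7 were those of Insm2, Eif3a, Gm13034, Tfg and Rnf219, at 0.04 to 0.05. Of 14 other genes of lipid carriage 0 were called, with a median of 0.05. Abca1, the pump that loads cholesterol onto apolipoproteins, had 248, 222 and 261 CPM in burn libraries and 167, 181 and 185 CPM in controls. Its groups did not overlap, but the difference did not pass (log2 fold change 0.45, SE 0.12, adjusted p 0.9998). Apod, an apolipoprotein of fibroblasts and glia, had 0.42 (SE 0.26) and Lrp8, a receptor of apolipoprotein E and the other gene of this list of 14 without overlap, 0.21 (SE 0.11). Over all genes tested, 7.24% did not overlap between the groups, 4.33% with the burn values above. The 11 macrophage genes, from a cell type that also makes Apoe, summed to 443 to 898 CPM in burn and 408 to 780 CPM in control libraries, with 0 called and a median log2 fold change of 0.21; they were lowest in burn 3 and control 3, where Apoe was highest within each group. The part of these cells in the Apoe levels was not tested.

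Ptprz1, Cdh19 and Lgi4, which act at the cell surface or in contact with neurons, were each highest in burn 3. Ptprz1, a receptor phosphatase that binds pleiotrophin, had 48.3, 51.9 and 93.2 CPM in burn libraries and 42.9, 48.9 and 68.1 CPM in controls. Cdh19 had 75.7, 73.5 and 127 CPM in burn libraries and 78.0, 64.8 and 79.2 CPM in controls. Lgi4 had 58.5, 53.5 and 84.7 CPM in burn libraries and 53.6, 71.6 and 75.6 CPM in controls. In all 3 genes the groups overlapped. The log2 fold changes were 0.28 for Ptprz1 (SE 0.28), 0.32 for Cdh19 (SE 0.22) and -0.03 for Lgi4 (SE 0.21), each with an edgeR adjusted p of 0.9998. Without burn 3 they were -0.08, 0.02 and -0.25. Between the deeper pair Cdh19 differed by 0.68 on the log2 scale and among the other 4 libraries by 0.07, and Ptprz1 by 0.45 and 0.13.

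Known partners of these 3 genes did not pass. Of 6 relatives and receptors of Lgi4 0 were called, with a median log2 fold change of 0.08. Lgi3 had -0.19 (SE 0.18), and Adam22 and Adam23, membrane receptors of the family, 0.11 each. Of 8 ligands and partners of Ptprz1 0 were called, with a median of 0.02. Tnc, an extracellular matrix protein, had 20.8, 25.9 and 15.6 CPM in burn libraries and 55.6, 38.1 and 21.3 CPM in controls (log2 fold change -0.89, SE 0.35, adjusted p 0.9998), with overlap between burn 2 and control 3. Of 9 other cadherins and catenins 0 were called, with a median of -0.05, and Cdh2, or N-cadherin, had 0.19 (SE 0.16).

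Among 20 other genes of peripheral glia 0 were called, 9 had a positive and 11 a negative sign, with a median log2 fold change of -0.01. Kcnj10, the inward rectifier potassium channel of satellite glia, had 38.6, 29.3 and 70.8 CPM in burn libraries and 26.1, 33.6 and 38.5 CPM in controls (log2 fold change 0.50, SE 0.32, adjusted p 0.9998). Like Ptprz1 and Cdh19, it stood highest in burn 3. Sox10, the transcription factor of the peripheral glial lineage, had 36.1, 32.3 and 52.9 CPM in burn libraries and 38.2, 55.3 and 58.9 CPM in controls (-0.33, SE 0.23). Of 16 genes of reactive glia 0 were called, 13 had a positive sign, against 9137 of the 17534 genes tested, and the median was 0.17. By an unadjusted p below 0.05 in edgeR, 0 were higher and 1, Tnc, was lower, against 357 and 162 of all genes tested. In this list 0 genes were without overlap between the groups, against 7.24% of all genes. Steap4, a metalloreductase, had 0.55 (SE 0.26), Cp, or ceruloplasmin, 0.28 (SE 0.17), Stat3, the transcription factor upstream of Gfap in astrocytes, 0.02 (SE 0.13), Socs3, its feedback inhibitor, 0.24 (SE 0.16), and Lcn2, or lipocalin 2, -0.23 (SE 0.38). Tnc, given above, also belongs to this list.

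Lists of the other cells that use these genes were set beside them. Myelinating Schwann cells had a median log2 fold change of -0.10 over 11 genes, of which Pmp22 had the highest mean CPM (-0.17, SE 0.24), and summed to 4390 to 9054 CPM in burn and 5373 to 9958 CPM in control libraries. Fibroblasts had 0.16 over 7 genes, with Col1a1 at -0.91 (SE 0.47) and Dcn at 0.36 (SE 0.17), and summed to 4590 to 8919 CPM in burn and 5241 to 9445 CPM in controls. Endothelium had -0.03 over 7 genes, with Cdh5 at -0.09 (SE 0.28), and summed to 175 to 232 CPM in burn and 171 to 246 CPM in controls. Neurons of the ganglion had -0.10 over 12 genes, 11 of them with a negative sign, against 8397 of the 17534 genes tested. Prph had -0.21 (SE 0.14), and the list summed to 13916 to 16981 CPM in burn and 15229 to 20391 CPM in controls. In these 4 lists and among macrophages 0 genes were called, and the sums of the groups overlapped in each. Their part in the levels of the 10 genes was not tested.

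**Figure D4:**
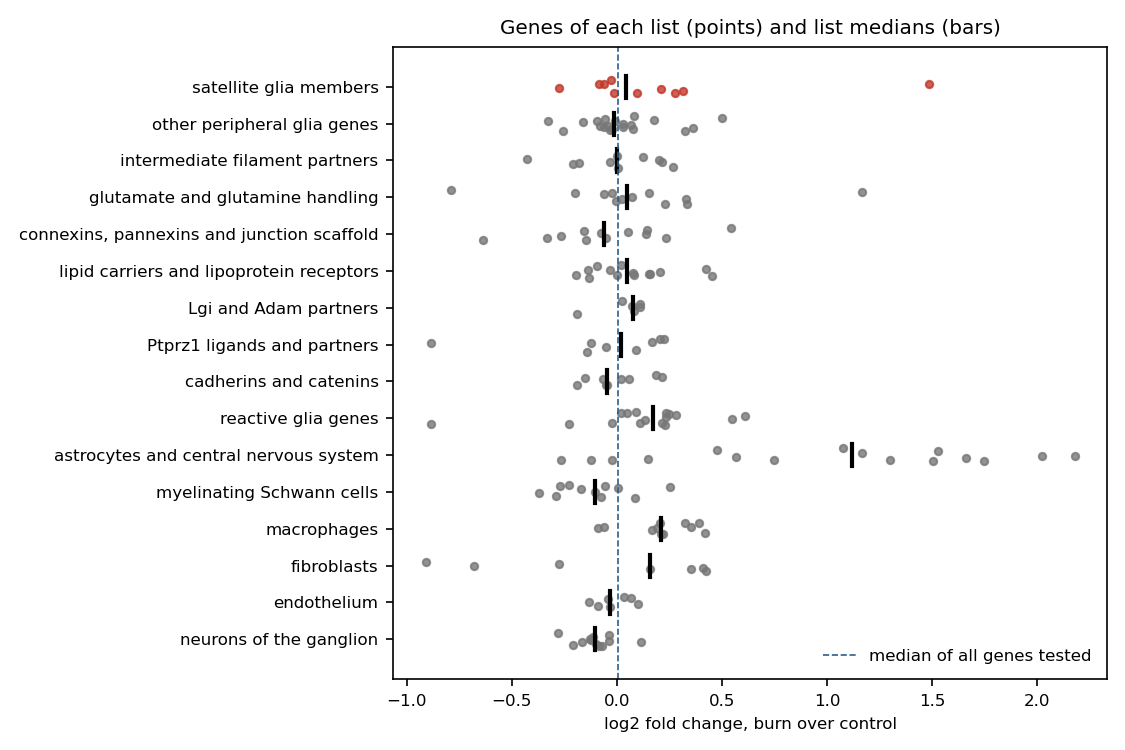
Log2 fold change, burn over control, of each tested gene (points) in the 10 satellite glia genes (red) and 15 other lists (grey), with list medians (bars) and the median of all tested genes (dashed). The list of astrocytes and central nervous system has a median of 1.12 over all 16 genes and 0.75 without the 3 that passed the filter only through burn libraries, the others lie between -0.10 and 0.21, and Gfap is the red point at 1.49.

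**Figure D5:**
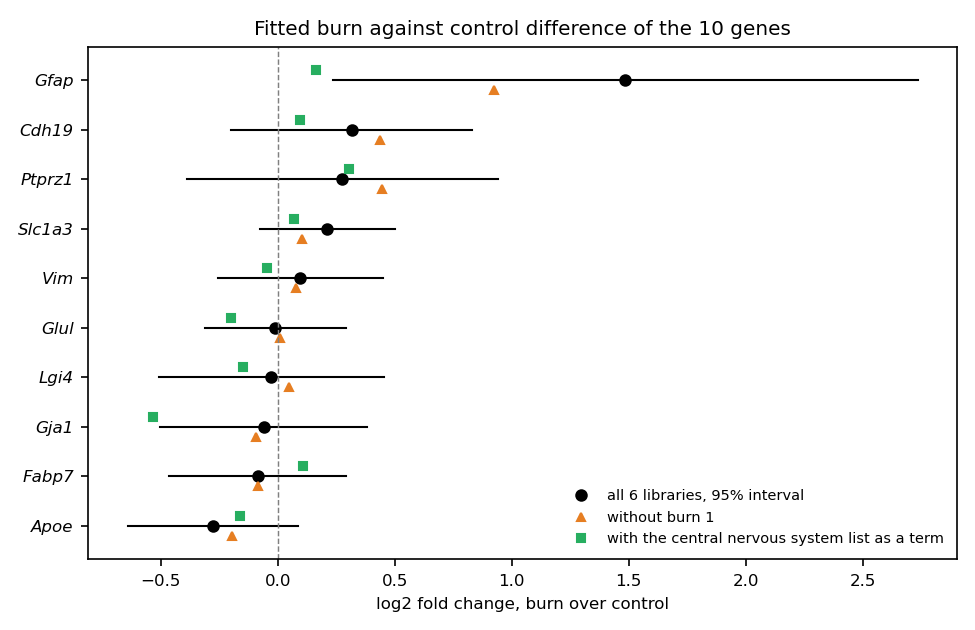
Log2 fold change, burn over control, of the 10 genes with its 95% interval (black), without burn 1 (triangles) and with 16 central nervous system genes as a term (squares). The Gfap value is 1.49 with all libraries, 0.92 without burn 1 and 0.16 with the term, and the intervals of the other 9 genes include 0.

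In GRCm38 coordinates of GENCODE release M21 all 10 are protein-coding genes. Gfap lies on chromosome 11 at 102887336 to 102900912 and Vim on chromosome 2 at 13573927 to 13582826. Slc1a3 lies on chromosome 15 at 8634124 to 8710764. Glul and Cdh19 lie on chromosome 1, at 153899944 to 153909723 and 110888326 to 110977584. Gja1 and Fabp7 lie on chromosome 10, at 56377330 to 56402513 and 57784881 to 57788450. Apoe and Lgi4 lie on chromosome 7, at 19696109 to 19699188 and 31059342 to 31070935, and Ptprz1 on chromosome 6 at 22875502 to 23052916. Exons of Lgi4 overlap those of Fxyd3 on the other strand over 2059 bases, and exons of Glul overlap those of Teddm2 on the other strand over 116 bases and those of Mir8114 on its own strand over 93. No source used here gives the strand setting of the counting, so the share of partner reads in the Lgi4 and Glul counts is not known. The other 8 genes share no exon bases with another annotated gene.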

How the data were processed

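Per the labels' protocols, libraries were stranded total RNA of whole ganglia. Each deposited file held 1 library's raw read counts by gene symbol. The submitters' processing notes name STAR, SAMtools, HTSeq, mm10 and GRCm38 but no version, and no source used here gives the annotation. The 5 HTSeq tally lines, 49.2% to 56.2% of entries, entered neither library sizes nor tests. They include alignments that were not unique, and leaving these out lowers the counts of genes with near-identical copies. Pairs of libraries of a group differed beyond sampling noise, with a chi-square of 40.5 to 189 for each degree of freedom.

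The test was edgeR 4.0.16 in R 4.3.3: filterByExpr (minimum count 10, minimum total 15), TMM scaling, estimateDisp (biological coefficient of variation 0.221), robust glmQLFit and a two-sided glmQLFTest, with group as the only term, Benjamini-Hochberg adjustment over 17534 genes, called under 0.05. A standard error is the log2 fold change divided by the square root of F, and its 95% interval uses the t distribution with the fit's degrees of freedom. CPM uses TMM-scaled library sizes. Values within the deeper pair and the other 4 libraries are differences of log2(CPM + 0.1). The step was also run on simulated counts with the fitted spread and with changes larger than those of most of the 10 genes. That run does not bear on smaller changes or on the split of libraries by depth. Alternatives used DESeq2 1.42.0, limma 3.58.1 and other settings. Figures used matplotlib 3.10.9. Promoter windows came from RefSeq on GRCm38.

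The 10 genes and the 15 other lists were chosen with earlier results of these data known. Named genes are the 10, the 3 lowest-p members of each other list (none held a call), the marker of highest mean CPM of each other cell type, Atf3 and the 5 nearest profiles of Gfap, Fabp7 and Vim; other list members named were chosen after their values were seen. Adgre1 was matched as Emr1. Some named genes are not reported here.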

Additional observations from a re-analysis of the deposited data

How the results depend on the processing

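Across 21 alternative settings, 2 of them chosen after the data were seen, 0 of the 10 genes were called, higher or lower. Over all genes the count of higher genes moved from 4 to 14 without a filter, 28 with DESeq2, 11 with the 4 shallower libraries alone (and 4 lower), 8 with the library total as a term, 2 with libraries thinned to the lowest total, 1 with the central nervous system list as a term and 0 in edgeR with 8 of its genes as a term (139 higher and 378 lower by an unadjusted p below 0.05). Leaving out 1 library gave 1 to 6 higher and 0 lower. Numbers 1 and 2 are shared by both groups in the titles, but no label says that they pair libraries, and deviations of same-numbered libraries correlated at -0.39 over 17534 genes. With the number as a replicate block over these 4 libraries, 4 genes were higher and 0 lower. With the crossed pairing, a choice made after the data were seen, 103 were higher and 310 lower. The Gfap log2 fold change was 1.09 with the block (SE 0.73, edgeR adjusted p 0.9997). With the crossed pairing it was 1.08 (SE 0.30, edgeR adjusted p 0.275, its lowest in the 21 settings). Some of these settings use fewer libraries, and the cause of the moves was not tested.

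Slc1a3 and Cdh19 stayed positive and Apoe negative in all 21 settings, at 0.02 to 0.30, 0.02 to 0.45 and -0.36 to -0.11. Gfap was positive in 20, up to 1.86, and -0.28 with the 8 genes as a term. Fabp7 turned positive with the central nervous system list (0.11) or the 8 genes (0.16) as a term, with the 4 shallower libraries alone (0.049), with the block (0.055) and with the crossed pairing (0.054). Vim turned negative with the list (-0.048) and the 8 genes (-0.066) as a term. Glul was 0.000455 with a stricter filter. Leaving out 1 library gave Fabp7 -0.22 to 0.090, Glul -0.077 to 0.063, Gja1 -0.21 to 0.11, Lgi4 -0.25 to 0.10, Ptprz1 -0.080 to 0.50, Vim -0.0080 to 0.21 and Gfap 0.92 to 1.86. With 3 libraries a group, the intervals leave room for changes of the 10 genes that were not detectable here.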
